A study of Mus musculus with 15 samples.

Results

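A set of 8 genes of long noncoding RNAs, transcripts that are not translated into protein, was followed through the mouse mammary tumors and glands of this study: Wincr1, Neat1, Malat1, Meg3, Gas5, Pvt1, Snhg1 and Kcnq1ot1. They are 8 of the 51826 genes in the expression tables and were taken by symbol. They were selected on this series with its values already known, so every level and fold change of the 8 genes is given as a description, with no test between groups, while such tests are kept for other genes. The comparisons ask how tumors that arose with Trim24, which encodes a reader of chromatin marks, overexpressed in mammary epithelium differ from normal glands, from each other by histological class, and from tumors without the transgene.

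The 15 RNA-seq libraries came from 13 mice of strain FVB per the labels, and the series text describes a mixed FVB/129 background. Trim24COE mice carry a single-copy piggyBac transgene in which a floxed stop precedes FLAG-tagged mouse Trim24, opened by MMTV-Cre, a Cre transgene under a mammary tumor virus promoter that acts in mammary epithelium. Tumors of 6 such mice were labelled carcinosarcoma (mice 64, 567 and 897), a tumor with both epithelial and mesenchymal parts, or carcinoma (89, 273_5 and 3956). The 4 control glands (133, 392, 417_3 and 517_3) were normal mammary tissue of mice with MMTV-Cre alone, so Trim24COE and control mice share the Cre transgene. The 3 non-TRIM24 tumors (219, FVB001 and FVB002) arose spontaneously, were labelled carcinoma and have an unknown genotype. The study worked with virgin females, and ages, which the labels leave out and the study lists for its tumors, were not used here. In the study's own tumor table, pathologists differed on the class of 89, 567 and 3956, and part of the class calls drew on RNA-seq, so the contrast of the 2 classes is not independent of expression.

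Of the libraries, 10 were sequenced in batch 1 and 5 in batch 2. All 3 non-TRIM24 tumors were in batch 2, where the gland of mouse 133 and the tumor of mouse 3956 were sequenced a second time. Values are TPM, transcript levels corrected for length and scaled to a sum of 1000000 in each library, so levels of different genes may be compared. Read depth is not given by such values, and 21060 to 34209 genes were above 0 per library. Trim24 itself was at 10.6 to 24.1 TPM in the Trim24COE tumors and at 14.5 to 22.4 TPM in the control glands, ranges that overlap. Whether reads of the transgene were counted is not given in the sources used here, and the tumors are named as the labels name them. The control glands fell into pairs. Glands 417_3 and 517_3 differed by an SD of 0.296 in log2 ratio over the 6836 genes with at least 5 TPM in every library, which is less than the 0.347 and 0.370 between repeat libraries of mice 133 and 3956. Counting this pair as 1 sample is given below wherever it ends a call. Glands 133 and 392 held adipocyte marker sums of 44937 and 51000 TPM against 2779 and 2798 TPM in 417_3 and 517_3.

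Long noncoding RNAs of these kinds act in several ways. Neat1 builds paraspeckles, nuclear bodies that hold RNA-binding proteins, and Malat1 gathers in nuclear speckles rich in splicing factors. Meg3 and Kcnq1ot1 belong to imprinted domains, where the copy from 1 parent is expressed, and Kcnq1ot1 runs antisense through Kcnq1 and silences nearby genes. Gas5 and Snhg1 carry small nucleolar RNAs in their introns, and their spliced transcripts are removed during translation by nonsense-mediated decay. Pvt1 lies beside the oncogene Myc. Wincr1 was named for its induction by Wnt signalling in mouse skin fibroblasts.

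The genes differ in build. On GRCm38 (GENCODE M21), Wincr1 spans chromosome 4, 89050308 to 89084614, on the plus strand, and its longest transcript has 618 bases in 3 exons. Its start window is shown because Wincr1 had the largest log2 difference between Trim24COE tumors and control glands of the 7 genes fitted (RefSeq, GRCm38.p6, chr4:89050057-89050356, plus strand, 5′ to 3′).
Wincr1 start window: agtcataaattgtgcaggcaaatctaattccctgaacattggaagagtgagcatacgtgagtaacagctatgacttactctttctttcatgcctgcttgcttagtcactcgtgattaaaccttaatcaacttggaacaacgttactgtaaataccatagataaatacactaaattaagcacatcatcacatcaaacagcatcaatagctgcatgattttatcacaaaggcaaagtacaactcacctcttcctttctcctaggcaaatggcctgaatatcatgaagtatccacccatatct
The window has a GC content of 37.7%, against a median of 52.7% over 32851 windows of the same 300 bases. The TCF/LEF letters CTTTGAA and CTTTGAT, searched on both strands, were not found in it or in the windows of the other 5 genes with an entry, and 8.65% of all windows hold at least 1 of them.

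Gas5 and Snhg1 are known as RNAs whose transcripts begin with a run of pyrimidines, which the annotated starts bear out only in part. The bases around their RefSeq starts are shown with those of Wincr1, the second of 2 listed starts for Gas5 (the other begins with no such base), with the unbroken run of C and T that begins at the start in capitals (each within the window chr1:161034916-161035215, chr19:8723237-8723536 and the window above, all plus strand).
Gas5: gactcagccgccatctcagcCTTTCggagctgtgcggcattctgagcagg
Snhg1: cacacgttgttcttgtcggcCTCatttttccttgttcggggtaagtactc
Wincr1: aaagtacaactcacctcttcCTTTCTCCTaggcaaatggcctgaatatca
The run has 5 bases in Gas5, 3 in Snhg1 and 9 in Wincr1, and runs at least that long begin 4.44%, 10.7% and 1.01% of all windows. In Wincr1 these 9 bases are the end of a run of 16 that begins upstream of the annotated start. The longest run near the start had 6 bases in Gas5 and 9 in Snhg1, the latter just after its start. The shares count only bases from the annotated start on. Whether Wincr1 belongs with such RNAs was not tested.

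Malat1 (chromosome 19, 5795690 to 5802672, minus strand) has a 6983-base transcript of 1 exon. Its 3′ region is shown because this end differs from that of an ordinary messenger RNA. The longest run of A, 12 bases at positions 6674 to 6685 of the transcript, is in capitals, and a tRNA-like part follows it (positions 6614 to 6745, chr19:5795928-5796059, minus strand, written as the transcript reads).
Malat1 3′ region: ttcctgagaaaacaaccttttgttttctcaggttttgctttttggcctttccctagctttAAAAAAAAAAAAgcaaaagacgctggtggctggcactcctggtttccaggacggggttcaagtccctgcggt
Mature Malat1 is known to end at such a genome-encoded A-rich tract after the tRNA-like part is cut off, and has no ordinary poly(A) tail.

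Wincr1 was high in 5 of the 6 Trim24COE tumors and close to 0 in every control gland. The carcinosarcomas 64, 567 and 897 had 45.0, 38.9 and 50.3 TPM, and the carcinomas 89 and 3956 had 63.6 and 60.9 TPM. Carcinoma 273_5 had 0.14 TPM, within the range of the control glands, which had 0.16, 0.34, 0 and 0.06 TPM. Because of this single tumor the groups overlapped. The log2 difference of tumors over glands, on the log2(TPM + 1) scale, was 4.60 (SE, its standard error, 0.99), and without 273_5 it was 5.52 (SE 0.246). Among the non-TRIM24 tumors, 219 had 2.78 TPM, FVB001 0.25 TPM and FVB002 0.82 TPM. All 3 were below the 5 high Trim24COE tumors, and 219 and FVB002 were above all control glands. Second sequencing gave 59.2 TPM for 3956 and 0 for gland 133, so the level of the carcinoma repeated within 1.03-fold across batches. Between classes the log2 difference of carcinosarcomas over carcinomas was 1.46 (SE 1.48), and without 273_5 it was -0.47. Against non-TRIM24 tumors, carcinomas had a log2 difference of 2.96 (SE 1.15), and 4.84 without 273_5. In bulk tissue, fewer cells that express a gene and less RNA per cell cannot be told apart.

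Of the 7 members with enough signal to be fitted in the comparison of Trim24COE tumors with control glands, none had groups that did not overlap, against 14.6% of all genes. Nothing is read from this count, since the genes were chosen with the values known.

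**Figure D1:**
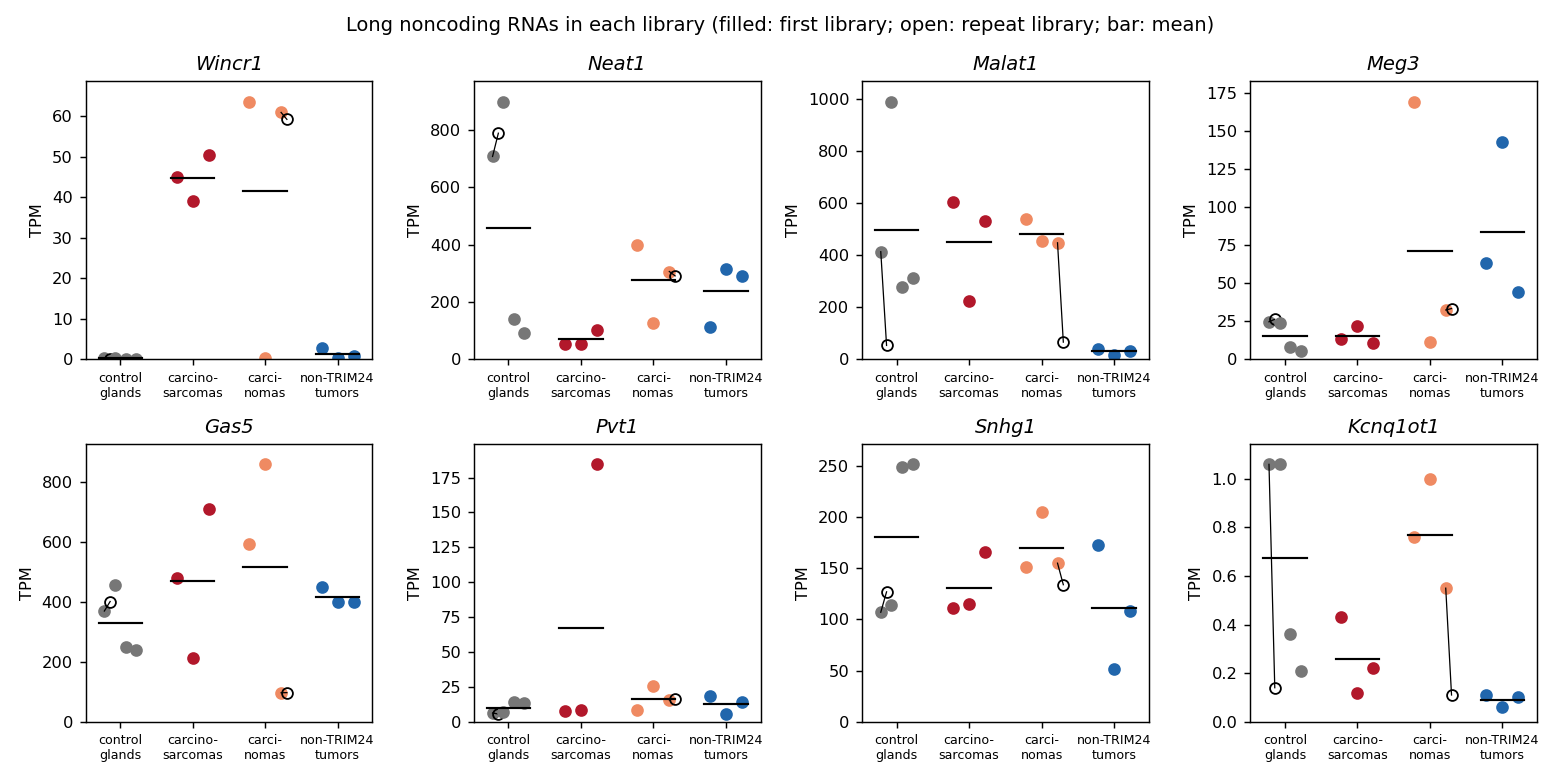
TPM (linear axis from 0, own scale per gene) of the 8 genes in each library, grouped as control glands, carcinosarcomas, carcinomas and non-TRIM24 tumors; filled points are first libraries, open points the repeat libraries of mice 133 and 3956 joined to their first library, and bars are group means over first libraries. Wincr1 is between 38.9 and 63.6 TPM in 5 Trim24COE tumors and at 0.14 TPM in carcinoma 273_5, and Malat1 falls from 412 and 447 TPM to 52.2 and 64.9 TPM in the repeat libraries.

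Genes around Wincr1 are not members and were tested, although Cdkn2a among them was known from earlier results to be high in these tumors. Within 250 kb on either side the annotation holds 20 genes, of which 5 had enough signal, and 4 of these rose in Trim24COE tumors, none fell, and the median log2 difference of the 5 was 2.44, against -0.04 over all genes. These are neighbours at 1 locus and not separate samples of the genome. Across all 15196 genes fitted, 17.1% were past the threshold of an adjusted p of 0.05, as 7.96% rose and 9.13% fell. Mtap, which encodes an enzyme that salvages methionine, lies 52.5 kb from Wincr1 on the same strand. It had 82.0, 69.4 and 60.2 TPM in the carcinosarcomas and 71.6, 29.3 and 103 TPM in carcinomas 89, 273_5 and 3956. The control glands had 11.01 to 15.07 TPM, below every Trim24COE tumor. The log2 difference was 2.28 (SE 0.31, limma adjusted p = 0.00118). As with Wincr1, the lowest Trim24COE tumor was 273_5.

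Gm12602, a noncoding transcript 16.1 kb away on the opposite strand, was likewise lowest in 273_5 and highest in 89 and 3956. It had 3.63 to 7.36 TPM in the carcinosarcomas, 10.4 and 10.9 TPM in carcinomas 89 and 3956, and 0 in 273_5, against 0 to 0.34 TPM in the control glands (log2 difference 2.44, SE 0.61, limma adjusted p = 0.0208). With glands 417_3 and 517_3 as 1 sample the adjusted p was 0.0533, and without 1 of them it was 0.0528 or 0.0533. Of the 4 genes, Mtap, Cdkn2a and Cdkn2b were past the threshold in all 20 alternatives run for them, with limma adjusted p of at most 0.0258. Cdkn2a and Cdkn2b, which encode cell cycle inhibitors, lie 190 and 222 kb away. Cdkn2a rose with a log2 difference of 5.88 (SE 0.79, limma adjusted p = 0.00111), and Cdkn2b rose with 3.59 (SE 0.54, limma adjusted p = 0.00193). In carcinoma 273_5, where Wincr1 was near 0, Cdkn2a was at 154 TPM, above the 138 TPM of 89 and the 90.2 TPM of 3956. Cdkn2b, at 28.5 TPM in 273_5, was lowest there among the 6 Trim24COE tumors, next to 29.0 TPM in 89, with 83.9 to 86.5 TPM in the carcinosarcomas and 162 TPM in 3956, and above the 2.03 to 9.44 TPM of the control glands. The remaining fitted gene, Gm12606, an intergenic noncoding transcript 151 kb away on the opposite strand, was at 0 to 2.38 TPM in the control glands and at 0.45 to 25.8 TPM in the tumors, and did not pass the test (limma adjusted p = 0.263). Between classes, Cdkn2a was higher in carcinosarcomas, 780 to 1074 TPM against 90.2 to 154 TPM in carcinomas (log2 difference 2.86, SE 0.28, limma adjusted p = 0.013), whereas Wincr1 itself overlapped between the classes. Without 64, 89 or 897 this adjusted p was 0.107, 0.0697 or 0.06.

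**Figure D2:**
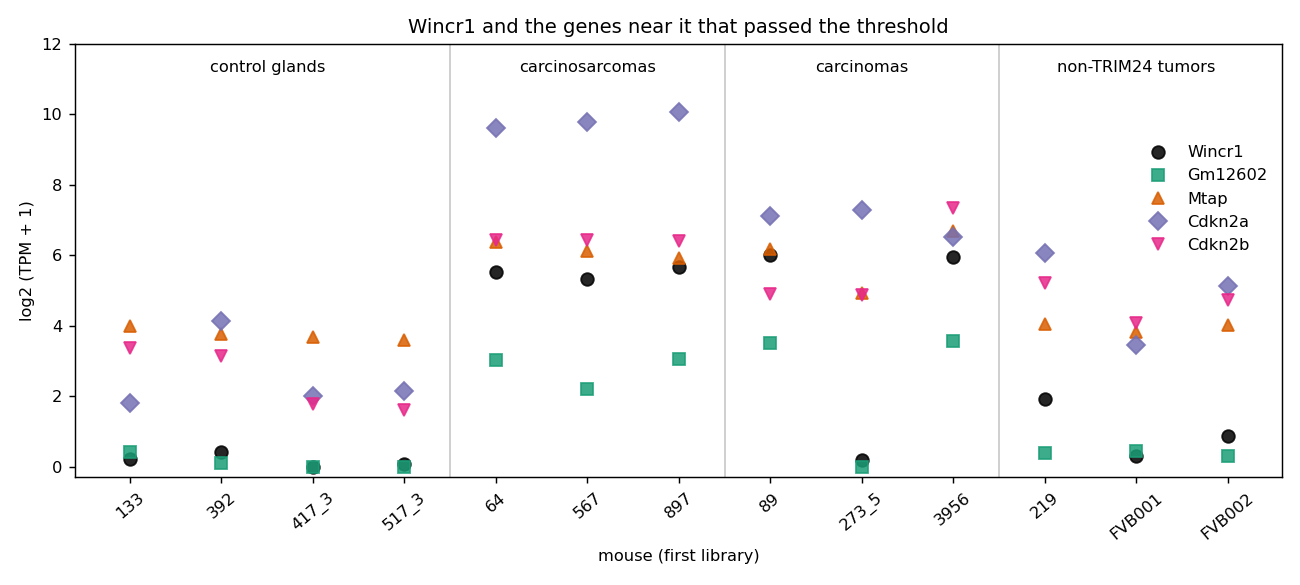
log2(TPM + 1) of Wincr1 and of the 4 genes within 250 kb that passed the test, in the first library of each of the 13 mice, ordered by group (mouse on the horizontal axis). In carcinoma 273_5, Wincr1 and Gm12602 lie with the control glands while Cdkn2a, Mtap and Cdkn2b lie above all control glands, the last 2 at their lowest level among the Trim24COE tumors.

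Cell type markers moved with the same contrast. Of 12 macrophage markers (led in level by C1qa and C1qb) 10 rose, with summed levels of 1528 to 3753 TPM in the Trim24COE tumors and 396 to 978 TPM in the control glands. Of 12 proliferation markers (Cdk1 and Top2a) 11 rose, from sums of 26.2 to 155 TPM to sums of 271 to 501 TPM. Of 12 fibroblast and mesenchymal markers (Vim and Col1a2) 3 rose, with sums of 827 to 11831 TPM against 1385 to 2557 TPM. The tumor with the lowest Wincr1, 273_5, also had the lowest fibroblast and mesenchymal sum of the 6, 827 TPM, beside a proliferation sum of 492 TPM. Its endothelial sum, 125 TPM, was the lowest of the 6 as well. The other tumors did not follow the fibroblast order. Carcinosarcomas had sums of 5312 to 11831 TPM and less Wincr1 than carcinomas 89 and 3956, which had 4043 and 4093 TPM. The control glands, with Wincr1 near 0, had higher fibroblast sums than 273_5. No macrophage, proliferation or fibroblast marker was at 0 in any library, and the part of these cells in the Wincr1 level was not tested. Of the other marker lists, 5 of 12 endothelial (led in level by Egfl7 and Cldn5), 4 of 12 lymphocyte (Cd79a and Cd3g) and 1 of 14 epithelial markers (Krt18 and Krt8) fell and none rose. None of 12 skeletal muscle markers (Acta1 and Tnnc2) was past the threshold by limma or had an unadjusted p under 0.05. Of 14 Wnt feedback targets, 11 were fitted, none rose and 1 fell, Rnf43, a ubiquitin ligase that removes Wnt receptors, with a log2 difference of -2.64 (SE 0.71, limma adjusted p = 0.0271; adjusted p = 0.0788 with glands 417_3 and 517_3 as 1 sample). Leaving out 64, 417_3, 517_3, 567, 897 or 3956 also ended this call (limma adjusted p of at most 0.0791). The median of the 11 was -0.50. Axin2, a common readout of Wnt activity, had a log2 difference of -0.65 (SE 0.35, limma adjusted p = 0.224).

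Neat1 (chromosome 19, 5824708 to 5845478, minus strand, longest transcript 20771 bases) was lowest in carcinosarcomas and varied most among control glands. The carcinosarcomas 64, 567 and 897 had 51.5, 53.3 and 102 TPM, and the carcinomas 89, 273_5 and 3956 had 400, 125 and 306 TPM. The 2 classes did not overlap, with a log2 difference of -1.91 (SE 0.49) for carcinosarcomas. Neat1 was the only one of the 7 members fitted in this comparison whose groups did not overlap, against 21.8% of all genes. Control glands 133 and 392 had 708 and 900 TPM, and 417_3 and 517_3 had 140 and 89.3 TPM. The difference within the control group was thus larger than that between the tumor classes. The non-TRIM24 tumors 219, FVB001 and FVB002 had 111, 314 and 292 TPM, and repeat libraries gave 790 TPM for gland 133 and 291 TPM for carcinoma 3956, within 1.12-fold of the first.

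The 2 glands with high Neat1 were those rich in adipocyte transcripts. Adipocyte marker sums were 242 to 3121 TPM in the Trim24COE tumors and 508, 73989 and 36980 TPM in 219, FVB001 and FVB002. FVB001, with the highest adipocyte sum, had less Neat1 than either fat-rich gland. Of the 20 adipocyte markers (led in level by Fabp4 and Cfd) 10 fell in Trim24COE tumors and none rose, and the marker Cidea was at 0 in 1 library. The log2 difference of Neat1 between Trim24COE tumors and control glands was -1.22 (SE 0.78), 0.19 without glands 133 and 392, and 0.85 with the adipocyte score as a covariate. The sign of this difference thus depended on whether glands 133 and 392 were kept and on the covariate. These 2 glands are also 1 of the pairs of control glands, so fat content and pair cannot be told apart here. In the contrast of classes, epithelial markers moved with Neat1. Of 13 fitted epithelial markers 4 fell in carcinosarcomas, with summed levels of 396 to 1428 TPM against 3254 to 7547 TPM in carcinomas, where 0.698% of all 14193 genes fitted between the classes were past the threshold. None of 18 fitted adipocyte or 12 fibroblast and mesenchymal markers was past that threshold, with median log2 differences of -1.665 and 1.204. In the other groups, high epithelial sums went with low Neat1. Glands 133 and 392 had epithelial sums of 1151 and 1792 TPM, against 6624 and 6916 TPM in 417_3 and 517_3. The sums in 219, FVB001 and FVB002 were 6707, 639 and 3760 TPM. The part of these differences in the Neat1 level was not tested.

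**Figure D3:**
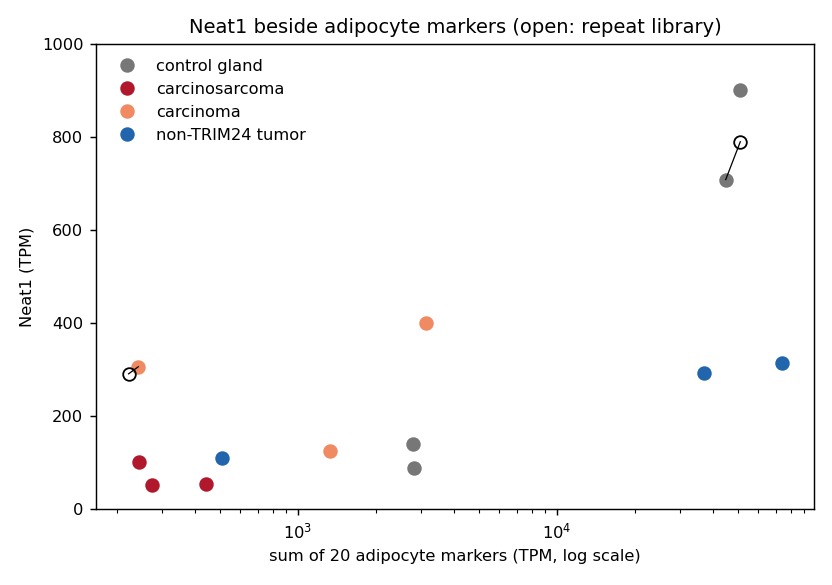
Neat1 (TPM, linear axis) against the sum of the adipocyte marker list (TPM, log axis) in each library, colored by group, with open points for the repeat libraries of mice 133 and 3956. Glands 133 and 392 stand apart at 708 and 900 TPM, and the non-TRIM24 tumor with the highest adipocyte sum has 314 TPM.

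Genes of proteins that bind Neat1 in paraspeckles moved in both directions. Of 20 paraspeckle protein genes, all fitted, 1 rose and 3 fell in Trim24COE tumors, and the median log2 difference was -0.12. Nudt21, a 3′ end processing factor, rose by 1.28 on the log2 scale (SE 0.33, limma adjusted p = 0.0228). Cirbp, a cold-inducible RNA-binding protein, fell by 1.86 on the log2 scale (SE 0.36, limma adjusted p = 0.00695), from a mean of 128 TPM (SD 54.5, n = 4) to one of 36.0 TPM (SD 20.2, n = 6). Hnrnph3 and Zc3h6 fell by 0.84 and 1.07 on the log2 scale, with limma adjusted p of 0.0296 and 0.0374. The core paraspeckle proteins Nono and Sfpq had adjusted p of 0.13 and 0.822. With the adipocyte covariate, none of these 4 calls was kept. Leaving out 133 or 392 ended the call of Nudt21 (limma adjusted p of at most 0.0653). With glands 417_3 and 517_3 as 1 sample, Hnrnph3 and Zc3h6 were not past the threshold (limma adjusted p of 0.0554 and 0.0711). The call of Hnrnph3 was lost in 7 of 10 such omissions (all but 89, 273_5 and 3956) and that of Zc3h6 in 6 of 10 (64, 273_5, 392, 417_3, 517_3 and 567), with limma adjusted p of at most 0.0854 and 0.103.

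Malat1 showed no separation between glands and tumors sequenced together, and a large shift between batches. In batch 1, control glands had 412, 989, 276 and 312 TPM, carcinosarcomas 603, 222 and 529 TPM, and carcinomas 539, 454 and 447 TPM. The groups overlapped, and the log2 difference of Trim24COE tumors over glands was 0.04 (SE 0.38), with a sign that turned to -0.15 with glands 417_3 and 517_3 as 1 sample and to -0.03 with upper-quartile scaling. All 5 libraries of batch 2 were lower than all 10 of batch 1. The non-TRIM24 tumors 219, FVB001 and FVB002 had 40.2, 17.4 and 30.7 TPM. The repeat library of gland 133 had 52.2 TPM, 7.90-fold below its first library, and that of carcinoma 3956 had 64.9 TPM, 6.88-fold below. Within batch 2, the 3 non-TRIM24 tumors were below both repeats, each of which is a single library of its group. The log2 difference of non-TRIM24 tumors over control glands was -3.91 without a batch term and -1.04 (SE 0.47) with it. Gm37376, an annotated gene that lies inside Malat1 on the opposite strand, was at 13.9 to 1218 TPM in batch 1. The lowest of these was in gland 417_3 and the highest in gland 392. Reads of Malat1 and Gm37376 cannot be told apart here, which limits the levels of Malat1.

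Few genes shifted in this way. Over all genes with at least 1 TPM in both libraries of a mouse, the middle 95% of log2 ratios of repeat to first library ran from -1.005 to 0.73 for mouse 133 and from -1.08 to 0.70 for mouse 3956, and 0.107% and 0.158% of genes had a ratio below that of Malat1. Of 12261 genes with at least 1 TPM in all 4 libraries, 16 were over 4-fold lower in both repeats and 4 were over 4-fold higher. Kcnq1ot1 shifted like Malat1, 7.57-fold and 5-fold lower, at levels under about 1 TPM. Neat1, Meg3, Gas5, Pvt1 and Snhg1 repeated within 1.19-fold in both mice. Structured RNAs without a poly(A) tail, taken as a list of 10 genes, had summed levels of 351 TPM and then 56.0 TPM in gland 133, and of 1189 TPM and then 400 TPM in carcinoma 3956. Of these, Rn7s2 went from 280 to 15.2 TPM in 133 and from 826 to 297 TPM in 3956, while Rnu12 rose in both. The sums in 219, FVB001 and FVB002, also of batch 2, were 251, 352 and 206 TPM, within the 200 to 1323 TPM of batch 1. Whether the Malat1 shift goes with the handling of RNAs without a poly(A) tail was not tested. The batch cannot be told apart from the non-TRIM24 group except through these 2 mice.

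**Figure D4:**
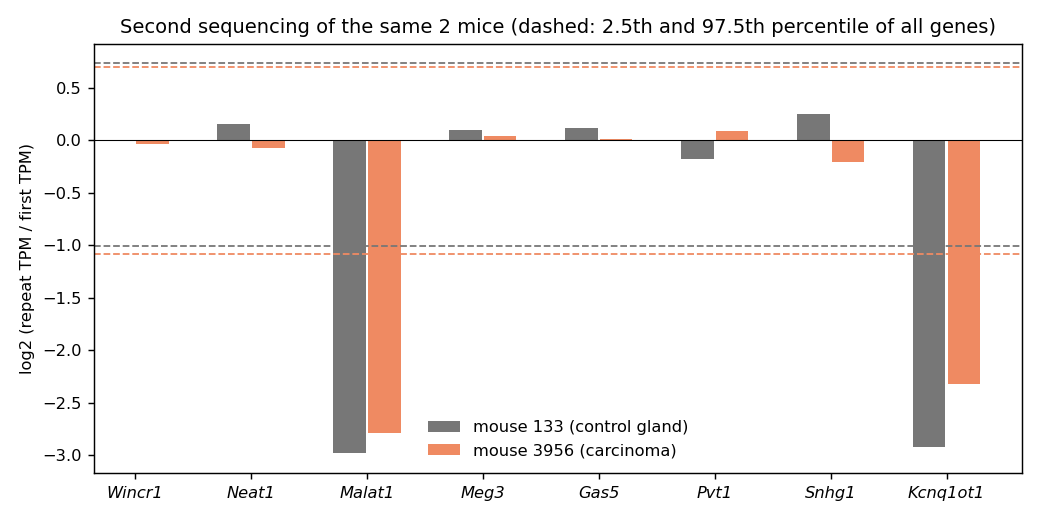
log2 ratio of repeat over first library (batch 2 over batch 1) of the 8 genes in mouse 133 (control gland) and mouse 3956 (carcinoma), with dashed lines around the middle 95% of all genes of each mouse. Malat1 and Kcnq1ot1 lie between -2.98 and -2.32 and the other genes between -0.21 and 0.25; Wincr1 has no bar for mouse 133, where the repeat is at 0.

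Among nuclear speckle and splicing proteins, all 20 were fitted and none rose in Trim24COE tumors, while 2 fell. Clk1, a kinase of splicing factors, fell by 1.44 on the log2 scale (SE 0.36, limma adjusted p = 0.0213). Srrm2, a scaffold of nuclear speckles, fell by 1.12 (SE 0.32, limma adjusted p = 0.0363). Neither was past the threshold with glands 417_3 and 517_3 as 1 sample (adjusted p of 0.0614 and 0.0529). Clk1 also lost its call without 417_3 or 517_3 alone, and Srrm2 in 8 of 10 omissions of 1 library (all but 89 and 517_3), with limma adjusted p of at most 0.0636 and 0.103.

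Meg3 (chromosome 12, 109541001 to 109571726, plus strand) was highest in carcinoma 89 and in the non-TRIM24 tumors. Carcinomas 89, 273_5 and 3956 had 169, 11.3 and 32.3 TPM, and carcinosarcomas 64, 567 and 897 had 13.3, 21.5 and 10.6 TPM. The control glands had 24.5, 23.5, 8.11 and 5.23 TPM. Trim24COE tumors thus overlapped the control glands, with a log2 difference of 0.88 (SE 0.74) and of 2.66 with the adipocyte covariate. The non-TRIM24 tumors 219, FVB001 and FVB002 had 63.1, 143 and 44.2 TPM, all above the 4 control glands. Meg3 repeated within 1.07-fold between batches in both mice, and with the batch term its log2 difference over control glands was 2.36 (SE 0.78). Overlap was judged on first libraries without a batch term, with all control glands in batch 1 and all non-TRIM24 tumors in batch 2. On these values 3 of the 8 members did not overlap between groups, Meg3, Malat1 and Kcnq1ot1, against 31.6% of all 16775 genes. Malat1 and Kcnq1ot1 also dropped from first to repeat library in both mice, so for them this count does not separate group from batch. Kcnq1ot1 reached 1 TPM, the level set by the filter, only in batch 1 libraries, those of 133, 392 and 273_5.

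Other RNAs of the Meg3 domain were highest in the same carcinoma. Rian and Mirg, noncoding RNAs read from the same strand and parental copy as Meg3, reached 84.6 and 10.9 TPM in carcinoma 89. In carcinosarcoma 567 Rian was at 57.8 TPM beside 21.5 TPM of Meg3, and in the non-TRIM24 tumor FVB001 it was at 4.98 TPM beside 143 TPM of Meg3. The non-TRIM24 tumors had Rian of 4.98 to 9.83 TPM beside 4.27 to 7.72 TPM in the control glands. Their Mirg was at 3.62, 3.28 and 1.45 TPM in 219, FVB001 and FVB002, the first 2 above the 0.55 to 1.49 TPM of the control glands. Of the other 5 genes of the cluster 4 were fitted. Dio3, which inactivates thyroid hormone, rose in Trim24COE tumors, from 0 to 0.13 TPM to 0.30 to 9.89 TPM (log2 difference 2.00, SE 0.56, limma adjusted p = 0.0315; 0.0688 with glands 417_3 and 517_3 as 1 sample). The call was also lost without 64, 133, 392, 417_3, 517_3 or 567 (limma adjusted p of at most 0.0717). Rian had a log2 difference of 1.89 (SE 0.61, limma adjusted p = 0.0537).

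Kcnq1ot1 (chromosome 7, 143203458 to 143296549, minus strand) was at or below 1.06 TPM in every library and did not pass the filter within batch 1. Control glands had 1.06, 1.06, 0.36 and 0.21 TPM, carcinosarcomas 0.43, 0.12 and 0.22 TPM, and carcinomas 0.76, 1.00 and 0.55 TPM. The carcinosarcomas were below the carcinomas with no overlap, with means of 0.257 and 0.77 TPM, a smaller ratio than that between its first and repeat libraries. Its 93092-base transcript overlaps Kcnq1 on the opposite strand, and the sources differ on whether the libraries kept strand, so reads of the 2 genes cannot be told apart here. Kcnq1 itself was at 31.0 TPM in carcinoma 3956 and at 0.77 to 5.49 TPM in the other libraries of batch 1. The genes that Kcnq1ot1 is known to silence include Cdkn1c and Phlda2. Of 9 fitted genes of this domain none rose and 1 fell in Trim24COE tumors, with a median log2 difference of 0.22. Cdkn1c, a cell cycle inhibitor, fell in Trim24COE tumors from a mean of 29.6 TPM in glands (SD 19.5, n = 4) to 7.20 TPM in tumors (SD 4.62, n = 6), a log2 difference of -1.92 (SE 0.60, limma adjusted p = 0.0492), and it was at 50.7 and 41.4 TPM in the fat-rich glands against 14.3 and 11.8 TPM in the other 2. With the adipocyte covariate its adjusted p was 0.599 and with glands 417_3 and 517_3 as 1 sample 0.0537, and the call was lost in 16 of 20 alternatives, among them 7 of 10 omissions of 1 library (64, 133, 273_5, 392, 417_3, 567 and 3956; limma adjusted p of at most 0.134). Phlda2, a placental growth inhibitor, was lower in carcinosarcomas, 1.06 to 2.21 TPM against 23.6 to 48.4 TPM in carcinomas (log2 difference -3.76, SE 0.36, limma adjusted p = 0.0123; 0.106, 0.0681 and 0.06 without 64, 89 and 897).

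Gas5 (chromosome 1, 161034422 to 161038539, plus strand) was abundant everywhere and varied widely among tumors. Control glands had 369, 455, 248 and 239 TPM, and the non-TRIM24 tumors had 449, 398 and 400 TPM. The carcinosarcomas had 479, 214 and 711 TPM, and the carcinomas 591, 858 and 96.5 TPM. The lowest value, carcinoma 3956, returned at 97.0 TPM in its repeat library. Trim24COE tumors and control glands overlapped, with means of 492 TPM in tumors (SD 292, n = 6) and 328 TPM in glands (SD 104, n = 4) and a log2 difference of 0.31 (SE 0.56). Between classes the log2 difference of carcinosarcomas was 0.19 (SE 0.85), and -0.77 without 3956.

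Snhg1 (chromosome 19, 8723475 to 8726443, plus strand) had another pattern, highest in glands 417_3 and 517_3, with 249 and 251 TPM, against 107 and 114 TPM in glands 133 and 392. All tumors were below 417_3 and 517_3, with 111, 115 and 166 TPM in carcinosarcomas, 151, 205 and 155 TPM in carcinomas, and 173, 51.7 and 108 TPM in 219, FVB001 and FVB002. The groups overlapped, and the log2 difference in Trim24COE tumors was -0.18 (SE 0.30) and 0.02 with glands 417_3 and 517_3 as 1 sample. Of the 16 other snoRNA host genes, all fitted, none rose and 2 fell in Trim24COE tumors, with a median log2 difference of -0.25. Snhg12 fell from a mean of 172 TPM in glands (SD 119, n = 4) to 38.7 TPM in tumors (SD 14.1, n = 6) (limma adjusted p = 0.0183; 0.0544 with glands 417_3 and 517_3 as 1 sample, 0.0542 or 0.0546 without 1 of them). Snhg11 fell from a mean of 10.1 TPM in glands (SD 8.84, n = 4) to 0.32 TPM in tumors (SD 0.52, n = 6) (limma adjusted p = 0.00234). Of 14 nonsense-mediated decay factors, none was past the threshold by limma and 1 had an unadjusted p under 0.05.

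Pvt1 (chromosome 15, 62037986 to 62378096, plus strand) was low in all libraries but 1. Carcinosarcoma 897 had 184 TPM, and the other 2 carcinosarcomas had 7.77 and 8.73 TPM. Carcinomas had 8.47, 25.3 and 15.6 TPM, control glands 6.26, 6.77, 14.3 and 13.4 TPM, and non-TRIM24 tumors 18.7, 5.86 and 14.2 TPM. The group mean of carcinosarcomas, 67.0 TPM (SD 102, n = 3), rests on tumor 897, and the log2 difference over carcinomas, 0.65 (SE 1.16), was -0.80 without it. In the same tumor Gm27913, a short annotated RNA that lies inside Pvt1 on the same strand, was at 165 TPM, against 20.2 TPM or less in the other libraries. Reads of the 2 overlapping genes cannot be told apart. Structured RNAs without a poly(A) tail summed to 1323 TPM in 897, the highest of all libraries, and their part in this value was not tested. Myc, 47.6 kb from Pvt1, was at 172 TPM in 897, above the 53.6 to 107 TPM of the other Trim24COE tumors, the 14.2 to 65.7 TPM of the non-TRIM24 tumors and the 26.3 and 25.6 TPM of glands 133 and 392. It was below the 278 and 264 TPM of glands 417_3 and 517_3. Across Trim24COE tumors Myc had a log2 difference of 0.08 (SE 0.70, limma adjusted p = 0.955).

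Windows of 250 kb around the 8 genes held 280 distinct genes, of which 86 were fitted in the comparison of Trim24COE tumors with control glands. Of these, 13 were past the threshold, 11 higher and 2 lower, which is 15.1% beside the 17.1% of all genes. The 86 include the members Neat1 and Malat1, which lie in each other's windows, and neither was among the 13. Of the 9 calls outside the Wincr1 window, 8 lay on chromosome 19, 3 near Neat1 and 5 near Snhg1 (19.2% of the 26 fitted there), and 1 near Kcnq1ot1, with none near Meg3, Gas5 or Pvt1. Frmd8, 4.22 kb from Neat1, rose by a log2 difference of 1.44 (SE 0.33, limma adjusted p = 0.0137), Sssca1 rose by 1.02 (SE 0.21, limma adjusted p = 0.00877), and Cdca5, needed for sister chromatid cohesion, rose by 1.60 (SE 0.36, limma adjusted p = 0.0137). Near Snhg1, Polr2g, a subunit of RNA polymerase II, rose by 1.17 (SE 0.20, limma adjusted p = 0.00359), as did Zbtb3, 1810009A15Rik and Taf6l, with log2 differences of 0.93, 0.89 and 0.68 and limma adjusted p of 0.0321, 0.0301 and 0.0433. With glands 417_3 and 517_3 as 1 sample these last 3 had limma adjusted p of 0.0842, 0.0835 and 0.0818. They were lost in 6, 3 and 9 of 10 omissions of 1 library, among them glands 417_3 and 517_3 for each and all but 897 for Taf6l (limma adjusted p of at most 0.0917, 0.0867 and 0.093). Zbtb3 was also lost without 64, 133, 392 or 567, and 1810009A15Rik without 64. Chrm1, a muscarinic receptor, fell by 1.74 (SE 0.38, limma adjusted p = 0.011), from 1.63 to 5.97 TPM to 0.03 to 1.79 TPM. With the adipocyte covariate 4 of the 13 calls were kept, and with glands 417_3 and 517_3 as 1 sample 8 were kept.

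The 11 related lists held 126 fitted genes besides the members, of which 14 were past the threshold in Trim24COE tumors, 2 higher and 12 lower, or 11.1% beside 17.1% of all genes. Besides those above, Plagl1, Snrpn and Zrsr1 fell among 11 fitted imprinted genes and RNAs outside the Meg3 and Kcnq1ot1 domains, with log2 differences of -1.74, -1.80 and -1.31 and limma adjusted p of 0.0168, 0.0301 and 0.0316. Plagl1 was lost without 417_3 (adjusted p = 0.051), Snrpn without 64, 133, 392, 417_3, 517_3 or 3956, and Zrsr1 without the same libraries other than 64 (limma adjusted p of at most 0.0763 and 0.0788). With glands 417_3 and 517_3 as 1 sample, Snrpn and Zrsr1 had limma adjusted p of 0.0562 and 0.0695, and 4 of the 14 calls were kept (Nudt21, Cirbp, Snhg11 and Plagl1). With the adipocyte covariate 1 of the 14 was kept, Snhg12. H19, an imprinted noncoding RNA, ranged from 7.79 to 1313 TPM in the Trim24COE tumors, with its highest value in carcinoma 273_5, and did not pass the test (limma adjusted p = 0.173). Of 12 fitted further long noncoding RNAs, none was past the threshold by limma and 4 had an unadjusted p under 0.05, with a median log2 difference of -0.36. Of 7 fitted structured RNAs, none was past the threshold and 1 had an unadjusted p under 0.05, with a median of 0.89. Myc and its partner Max were both fitted, and neither was past the threshold or had an unadjusted p under 0.05. Between classes 1 of 124 fitted related genes was past the threshold, Phlda2. Of 129 fitted against the non-TRIM24 tumors, 1 was past the threshold over control glands, the paraspeckle protein gene Rbm7, with a log2 difference of -1.35 (SE 0.23, limma adjusted p = 0.0157; 0.0562 with glands 417_3 and 517_3 as 1 sample, at most 0.0652 without 219, FVB002, 417_3 or 517_3, each of which ended the call), beside 0.709% of all genes. None was past it between Trim24COE carcinomas and non-TRIM24 tumors by limma, where 0.0298% of all genes were past it and 23 of the 129 had an unadjusted p under 0.05. In that last comparison 2 of the 8 members, Malat1 and Kcnq1ot1, did not overlap, against 36.4% of all genes, and both are the members that shifted between batches.

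**Figure D5:**
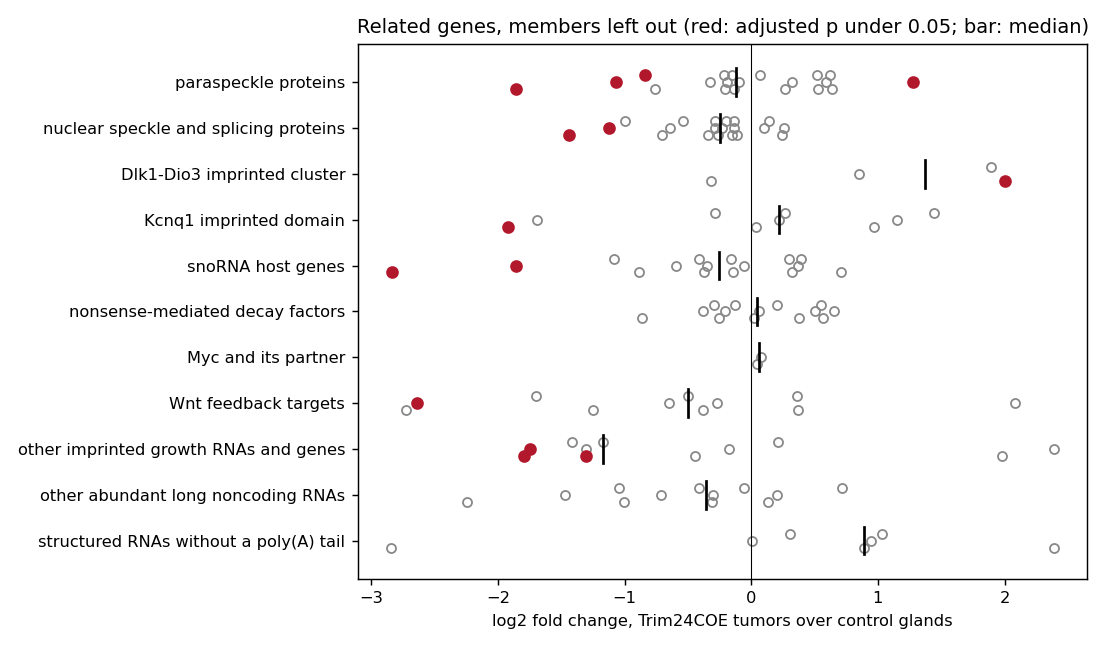
log2 difference of each fitted gene of the 11 related lists, Trim24COE tumors (n = 6) over control glands (n = 4), with members left out; red points have an adjusted p under 0.05 and bars are list medians. Of 126 genes 14 are red, 12 of them to the left of 0.

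The genes whose log2(TPM + 1) ran most nearly parallel to each member over the 10 first libraries of batch 1 are given as a description, since these libraries share a batch and their tissue makeup differs by group. For Wincr1 they were Sirpb1c, Adamts16 and Cars, with Pearson correlations of 0.971, 0.971 and 0.959. Neat1 was followed by Kantr, Zfp943 and Hint3 (0.952, 0.947 and 0.945), and Malat1 by Mcm3ap, Tubgcp5 and Nxf1 (0.961, 0.921 and 0.878). Meg3 ran with Tepsin, Btbd1 and Miip (0.914, 0.903 and 0.894), Gas5 with Vldlr, Mrpl1 and Ptcd3 (0.922, 0.876 and 0.867), and Pvt1 with Dcun1d5, Yap1 and Arhgap42 (0.914, 0.907 and 0.894). The closest to Snhg1 were Rsrc2, Snhg15 and Sde2 (0.965, 0.958 and 0.948), the second itself a snoRNA host gene, and to Kcnq1ot1 they were Fah, Ing4 and Zfp780b (0.938, 0.937 and 0.933). Single libraries weigh heavily in the correlations of Pvt1, at 184 TPM in 897, and of Meg3, at 169 TPM in 89. Those of Kcnq1ot1 rest on levels of at most 1.06 TPM.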

How the data were processed

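RNA-seq of 15 libraries from 13 mice was deposited as 1 table per sequencing batch, in which the authors give TPM values from RSEM per gene after STAR alignment to GRCm38 with GENCODE M14. Positions were taken from GENCODE M21. The labels and the methods name different RNA and library kits, and the strand setting is not given in the sources used here. Of 51826 gene IDs 51633 matched M21. The members and gene lists were chosen with earlier results of these data known. TPM values were analysed as log2(TPM + 1) with limma 3.58.1 in R 4.3.3 and Benjamini-Hochberg adjustment over all fitted genes at 0.05. A gene was fitted if the number of libraries with 1 TPM or more reached the size of the smaller group. The 2 within-batch comparisons used first libraries, and those against non-TRIM24 tumors took in both batches, with batch in the model and mouse as a correlated unit (within-mouse correlation 0.951). A covariate alternative used the mean log2 level of the adipocyte markers. Members are described without tests between groups. Named genes are neighbours within 250 kb past the threshold, up to 4 genes past it per related list and direction, the 2 highest of each marker list, and for each member the 3 genes, clone names left out, with the highest correlation. The 11 related lists are drawn in the plot of related genes, and the 8 marker lists were adipocyte, epithelial, fibroblast and mesenchymal, endothelial, macrophage, lymphocyte, skeletal muscle and proliferation. Fits were tested on simulated data with 200 changed genes. In the comparison of Trim24COE tumors with control glands (15311 genes), 86% of genes changed by 2 and 100% of those changed by 3 on the log2 scale were recovered. Between classes these shares were 64% and 93%, for non-TRIM24 tumors against glands 83% and 97%, and for carcinomas against non-TRIM24 tumors 73% and 93%. The simulated spread came from the control glands, was capped, and was drawn gene by gene. These shares therefore do not cover genes with a wider spread. Each library sums to 1000000 TPM, so depth and counting error are not known.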

Additional observations from a re-analysis of the deposited data

Results flagged for a closer look

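In groups of 4 or 6 first libraries, 16 sets of values of the 8 genes were examined for a sample far from the rest, by the gap to its nearest neighbour over the range of the group. The critical values were set for about 1 group in 20 flagged by chance, and 2 were flagged. TPM are skewed, the 6 tumors pool 2 classes, and the genes were chosen with their values known. That rate cannot be relied on here, and the flags are given as a description. Among the 6 Trim24COE tumors, Meg3 stood apart in carcinoma 89 at 169.35 TPM, with a gap of 0.863 of the range against a critical value of 0.625. Pvt1 stood apart in carcinosarcoma 897 at 184.48 TPM, with a gap of 0.901 of the range against the same critical value.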

How the results depend on the processing

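The count of genes past the threshold between Trim24COE tumors and control glands, 2597, was 774 with the adipocyte covariate and 1779 to 2911 with 1 library left out. Between classes it was 99, but 0 with no filter and 0 to 293 with 1 library left out (0 without 64 or 89, 14 without 897, 49 without 567 and 293 without 3956). For the non-TRIM24 tumors against control glands it was 119, but 50 with no filter, 62 with a filter of 5 TPM, 2330 with no batch term, 18 with libraries treated as independent, 52 with glands 417_3 and 517_3 as 1 sample and 3350 without glands 133 and 392, and 7 to 476 with 1 mouse left out (7 without FVB002, 49 and 51 without 417_3 and 517_3, 67 without 219, 285 without 3956 and 476 without 133). Between carcinomas and non-TRIM24 tumors it was 5, but 2 and 3 with pseudocounts of 0.1 and 0.5 TPM, 8 with no filter, 1 with a filter of 5 TPM, 1500 with no batch term and 3 with libraries treated as independent, and 2 to 83 with 1 mouse left out (2 without 64, 89, 417_3, 517_3, 567, 897 or FVB002, 9 without 3956, 12 without 133, 13 without FVB001, 52 without 273_5 and 83 without 219). In these 2 comparisons, leaving out mouse 133 or 3956 removed both of its libraries, and with them 1 of the 2 mice that bridge the batches. Upper-quartile scaling moved the median log2 fold change of all genes from -0.27 to -0.04 and from 0.27 to -0.02 in the 2 comparisons with non-TRIM24 tumors. No paired analysis was possible because the replicates are mouse numbers and the groups share none. The causes of these shifts were not tested. Depth is not given by TPM values, so low values such as those of Kcnq1ot1 carry an unknown counting error, and the repeat libraries bridge the batches through 2 mice.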
